A study of Mus musculus with 36 samples.

Results

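Mouse bone marrow-derived macrophages carrying the D310N form of Tnip2 were compared with wild-type (WT) macrophages after 360 min with lipopolysaccharide (LPS). The comparison used 6 of the 36 RNA libraries of the study, 3 from D310N cells at 360 min and 3 from WT cells at 360 min, chosen by their column names. Bone marrow-derived macrophages are primary cells that mature in culture, here over 7 days in medium with supernatant of L929 cells, a fibroblast line that secretes the growth factor M-CSF. LPS is the bacterial cell wall lipid sensed by Toll-like receptor 4 (TLR4), and it was given at 100 ng/ml. The other 30 libraries came from D310N and WT cells with no LPS and from D310N and WT cells at 30, 60, 120 and 240 min, again 3 for each genotype and time. The sample titles call the mutant D310N and the header of the table calls it D309N. The name D310N is used here. No label gives the sex or strain of the mice, or says that the 3 libraries of a group came from separate animals or cultures, so p-values measure the spread between these libraries, which may be technical.

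Tnip2 encodes ABIN-2, a partner of the kinase Tpl2 (gene Map3k8) and of the NF-κB precursor p105 (gene Nfkb1). When TLR4 is engaged, p105 is degraded, Tpl2 is set free and the ERK kinases are switched on, while NF-κB factors enter the nucleus and induce cytokines and their own inhibitors. ABIN-2 also belongs to a small protein family that binds polyubiquitin chains and meets A20 (gene Tnfaip3), a deubiquitinase that restrains NF-κB. The changed residue lies in the stretch of ABIN-2 that binds ubiquitin.

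The codons behind both names are shown because the files name the mutation in 2 ways. In the GENCODE M21 transcript Tnip2-202, counted from its start codon, codon 310 is an aspartate codon in exon 5 at chr5:34499279-34499281 on the minus strand of GRCm38. The codon just before it, at chr5:34499282-34499284, is an aspartate codon too. Each line gives WT reference bases of Tnip2-202, 5′ to 3′, across a junction of 2 exons, with the named codon in capitals.
codon 310: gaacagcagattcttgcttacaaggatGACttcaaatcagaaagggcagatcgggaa
the codon before it: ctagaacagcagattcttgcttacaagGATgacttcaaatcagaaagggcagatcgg
The deposited gene values cannot show the base change itself.

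One library stood apart from its label and touches every result. Each library was placed on a line between the mean of the D310N libraries at 240 min, set to 0, and the mean of the D310N libraries at 360 min, set to 1, over the 4540 genes (38.9%) that differed between these D310N groups, 18.6% higher and 20.3% lower at 360 min. The D310N libraries at 360 min lay at 1.01, 0.98 and 1.01. The WT libraries at 360 min lay at 0.12, 1.05 and 0.98, and those at 240 min at 0.12, 0.11 and 0.09. The library labelled WT at 360 min, replicate 1, thus lay among the WT libraries of 240 min. In it, 243 genes were more than 1 log2 unit from the mean of the other 2 WT libraries, against 54 and 33 genes for those. For WT replicates 2 and 3 that mean included replicate 1, so their numbers do not measure their own spread alone. For the D310N libraries at 360 min the number was 16 to 20. Each gene was therefore tested with all 36 libraries and again without this library, here called the doubtful one, and WT values are listed in the order of replicates 1, 2 and 3, so that the first comes from it.

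**Figure D1:**
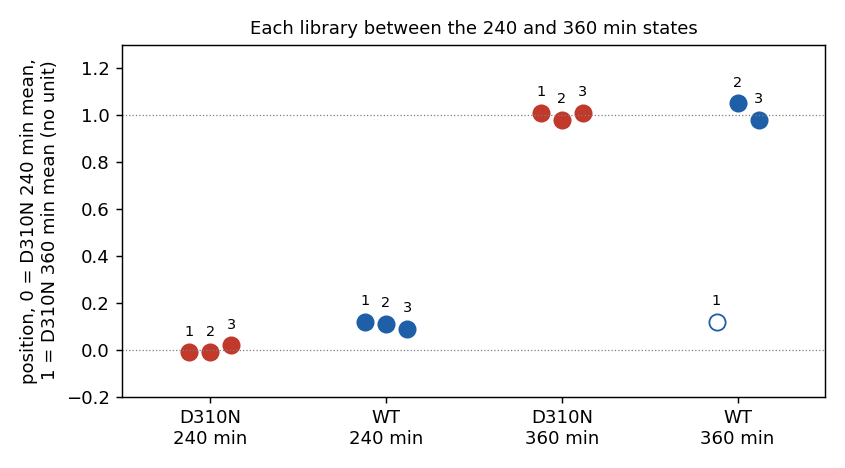
Position of each library (numbered points) between the mean of D310N at 240 min (0) and of D310N at 360 min (1), over 4540 genes. The open point, the library labelled WT at 360 min, replicate 1, lies at 0.12, beside the WT libraries of 240 min, and the other 2 WT libraries of 360 min lie at 1.05 and 0.98.

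Many genes differed between D310N and WT macrophages at 360 min, nearly all by small amounts. With all libraries, 793 of 11659 tested genes (6.8%) were higher in D310N and 1110 (9.52%) were lower at an adjusted p under 0.05, together 16.3%. Without the library labelled WT replicate 1, 924 (7.93%) were higher and 1164 (9.98%) lower, together 17.9%. Both ways and in the same direction, 499 genes (4.28%) were higher and 693 (5.94%) lower, which is 62.6% of the calls with all libraries and 57.1% of the calls without the doubtful one. A gene called in this way is written below as called both ways, and "rose" and "fell" are used for D310N relative to WT. No gene was called in opposite directions by the fits. The counts of the gene lists below are to be read beside these shares of all genes. The median size was 0.26 on the log2 scale for the genes that rose both ways and 0.37 for those that fell both ways, and 8 and 18 of them differed by more than 1. The 6 libraries did not overlap between genotypes for 449 (90%) of the genes that rose and 608 (87.7%) of those that fell, against 22.2% of all tested genes. Since the genes were called on these same libraries, this follows largely from the call and adds no separate support, here or for single genes below.

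**Figure D2:**
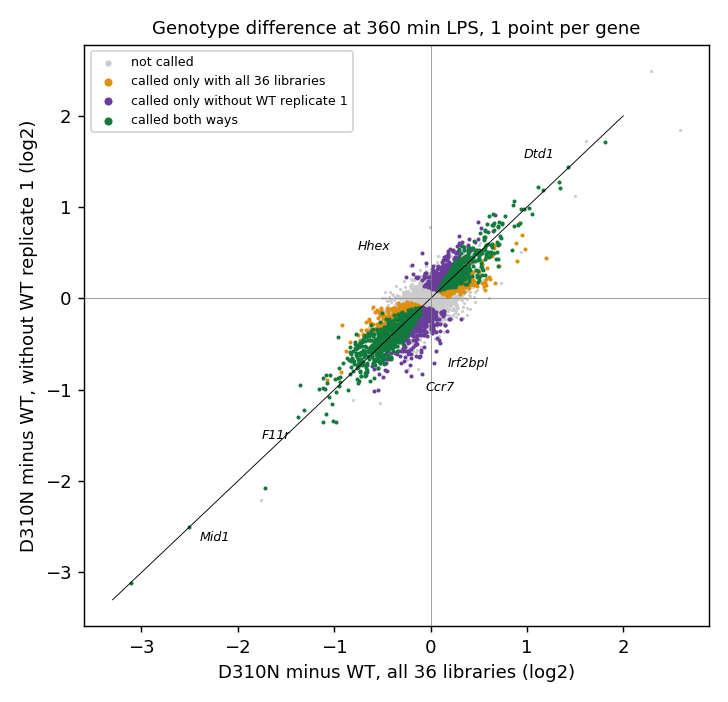
Difference between D310N and WT at 360 min with all libraries (x axis, log2) against the difference without the library labelled WT replicate 1 (y axis, log2), 1 point per gene. Genes called both ways (green) lie near the diagonal; Irf2bpl, Ccr7 and Hhex are examples of genes off it.

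The D310N libraries differed in how far they stood from WT. Replicate 2 was the D310N library nearest to WT for 293 (58.7%) of the 499 genes that rose both ways and for 457 (65.9%) of the 693 that fell both ways. Leaving out D310N replicate 1 gave 1115 called genes and leaving out replicate 3 gave 1180, while leaving out replicate 2 gave 1728. A fit to the 6 libraries of 360 min alone, with 4 residual degrees of freedom, called 12 genes, and 1590 had an unadjusted p under 0.05. Without the doubtful library the remaining 5 called 1017 genes, among them 276 of the 499 that rose both ways and 359 of the 693 that fell both ways. A bulk sample cannot tell fewer cells of a kind from less RNA per cell.

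Among the genes that rose most, leaving out weakly expressed ones such as Abhd1 (1.81), were an aminoacyl-tRNA proofreading enzyme, clotting factors and adhesion molecules. Dtd1 encodes a deacylase that clears D-amino acids from tRNAs. Its log2 values were 7.62, 7.42 and 7.63 in D310N cells, against 6.15, 6.05 and 6.18 in WT cells, a difference of 1.43 ± 0.10 (SE, adjusted p = 3.02e-11), or 2.69-fold. Itgax, the integrin chain CD11c, had 12.66, 12.24 and 12.64 in D310N cells, against 11.38, 11.29 and 11.36 in WT cells, a difference of 1.17 ± 0.13 (adjusted p = 3.93e-07). Neither gene's libraries overlapped between genotypes, and the values without the doubtful WT library were 1.44 for Dtd1 and 1.19 for Itgax. Fn1, the matrix protein fibronectin, had 7.93, 7.56 and 7.95 in D310N cells, against 6.40, 6.35 and 6.72 in WT cells, a difference of 1.33 ± 0.16 (adjusted p = 1.71e-06). F7, coagulation factor VII, had 7.48, 6.90 and 7.62 in D310N cells, against 5.72, 6.23 and 6.02 in WT cells, a difference of 1.34 ± 0.26 (adjusted p = 0.00054). For both genes D310N replicate 2 was the lowest D310N library and still lay above every WT library. F10, coagulation factor X, rose by 0.87 ± 0.16 (adjusted p = 0.000443); it lies next to F7, at chr8:13037308-13056676, where F7 ends at 13035809.

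The other genes with the largest rises, called both ways, were Ptprn at 1.12, Gpc1 (glypican-1, a heparan sulfate proteoglycan) at 1.05, Plpp3 (a lipid phosphatase) at 1.02, Ppp1r1a (an inhibitor of protein phosphatase 1) at 0.97, Lrrc32 (a docking receptor of latent TGF-β) at 0.94, Mgme1 (a mitochondrial DNA nuclease) at 0.93 and Cmklr1 (the chemerin receptor) at 0.91. Without the doubtful WT library these differences lay between 0.80 for Cmklr1 and 1.22 for Ptprn. Cmklr1 had 8.24, 7.66 and 8.23 in D310N cells, against 6.90, 7.30 and 7.19 in WT cells, and Plpp3 had 6.44, 5.86 and 6.43 in D310N cells, against 5.17, 5.36 and 5.16 in WT cells. Of the named rises, Cmklr1 and Plpp3 were the ones not called at 240 min, where their differences were 0.29 and 0.37. Dtd1 and Mgme1 lie near each other, at chr2:144599897-144768758 and chr2:144270663-144281227.

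The 2 largest falls were on the X chromosome. Mid1, an E3 ubiquitin ligase of microtubules that lies at chrX:169685199-170005736 and spans the pseudoautosomal boundary in common laboratory mice, had 9.70, 9.75 and 9.39 in D310N cells, against 12.14, 12.29 and 11.93 in WT cells. The difference was -2.51 ± 0.12 (adjusted p = 2.7e-15), a level 5.69-fold higher in WT, and -2.50 without the doubtful library. The unnamed gene G530011O06Rik fell by 3.11 on the log2 scale; it lies inside Mid1 on the other strand, and with no statement that strand was used in counting, reads of the pair cannot be told apart. F11r on chromosome 1, which encodes the junctional adhesion molecule A, had 7.41, 8.0 and 7.62 in D310N cells, against 9.20, 8.96 and 8.99 in WT cells, a difference of -1.38 ± 0.15 (adjusted p = 3.93e-07). Its genotypes did not overlap, and D310N replicate 2 was again nearest to WT.

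The remaining genes with the largest falls were called both ways and differed in role. They were Tnn (the matrix protein tenascin-N) at -1.31, Vash1 (vasohibin, a tubulin-tyrosine carboxypeptidase) at -1.16, Phgdh (the first enzyme of serine synthesis) at -1.12, Slc43a3 (a purine base transporter) at -1.12, Cytip (a regulator of leukocyte adhesion) at -1.09, Lix1 at -1.08, Kif4 (a chromosome-bound kinesin) at -1.07, Cbr2 (carbonyl reductase 2) at -1.05 and Ly6a (Sca-1) at -1.02. Without the doubtful library Slc43a3 and Cytip stood at -0.87 and -0.84, and Lix1 and Ly6a at -1.26 and -1.16. Cytip had 8.02, 7.88 and 8.09 in D310N cells, against 9.59, 8.77 and 8.90 in WT cells. Its doubtful WT library was the highest of the 6, and the other 2 also lay above all D310N libraries.

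**Figure D3:**
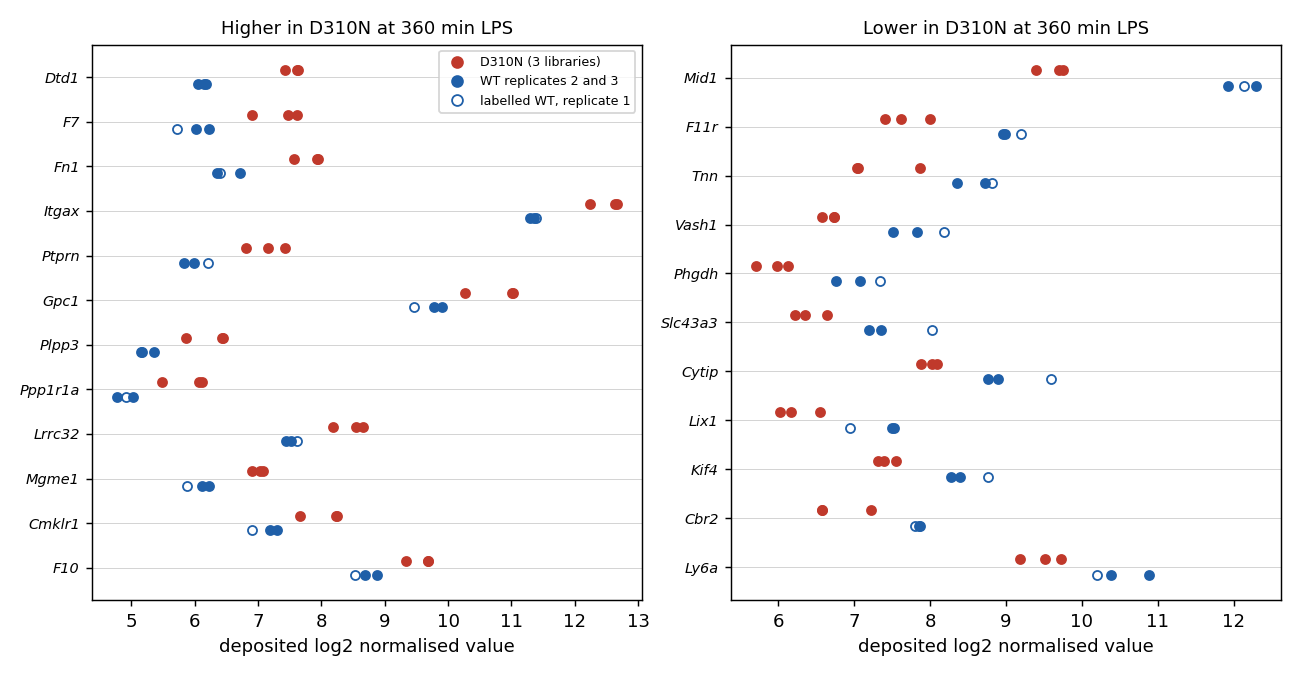
Deposited log2 values at 360 min of the named genes with the largest rises (left) and falls (right) that were called both ways; D310N libraries in red above, WT libraries in blue below, the open circle being the library labelled WT replicate 1. In each of these genes the D310N and WT points do not overlap. Mid1 has the largest difference of the genes drawn; G530011O06Rik is not drawn.

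In the Tpl2 and A20 pathway, the genes called with all libraries differed by small amounts. The mutated gene itself, Tnip2, had log2 values of 9.05, 9.11 and 9.07 in D310N cells, against 9.18, 9.41 and 9.15 in WT cells. The difference was -0.17 ± 0.06 with all libraries (adjusted p = 0.0564) and -0.21 ± 0.07 without the doubtful one (adjusted p = 0.0335), and it was also called without WT replicate 3 (-0.22, adjusted p = 0.0221). Only 3 of 17 alternative limma fits called it. Their differences ranged from -0.22 to -0.09, with adjusted p up to 0.397. WT replicate 2, at 9.41, was the highest of the 6 libraries. At 240 min it stood at 0.18 (adjusted p = 0.0398). Map3k8 (Tpl2) at -0.09 and Nfkb1 (p105) at 0.04 were called neither way, and nor was Tnip1 (ABIN-1) at 0.03. Tnfaip3 (A20) fell: it had 14.32, 14.43 and 14.36 in D310N cells, against 14.63, 14.69 and 14.51 in WT cells, a difference of -0.24 ± 0.06 (adjusted p = 0.00327), and -0.23 without the doubtful library. All D310N libraries lay below all WT libraries. Ikbkb, the kinase IKKβ, fell by 0.22 and, without the doubtful library, by 0.16. Of 16 tested members of this list, 1 rose and 3 fell with all libraries, 0 rose and 5 fell without the doubtful library, and 2 fell both ways. Over all genes 6.8% rose and 9.52% fell with all libraries, and 7.93% and 9.98% without the doubtful one. The median difference of the list was 0.03, against -0.01 over all genes. Of 17 genes of the TLR4 receptor complex and its adaptors, 2 rose and 0 fell with all libraries, 1 rose and 1 fell without the doubtful one, and 4 rose and 1 fell without WT replicate 2. The adaptor Ticam2 (TRAM) alone rose both ways, by 0.25 and 0.13.

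NF-κB subunits and feedback regulators that differed with all libraries were lower in D310N. Of 16 tested, 0 rose and 5 fell with all libraries, 2 rose and 5 fell without the doubtful library, and 4 fell both ways. Without D310N replicate 3 the number that fell was 3. Bcl3, an IκB protein that works in the nucleus, had 10.52, 10.44 and 10.54 in D310N cells, against 11.27, 11.01 and 10.76 in WT cells, a difference of -0.51 ± 0.08 (adjusted p = 5.03e-05), and -0.39 without the doubtful library. The inhibitor Nfkbie (IκBε) and the ubiquitin ligase Birc3 (cIAP2) each fell by 0.20, and by 0.12 and 0.15 without that library. The fourth, named after its values were seen, was Traf1, a signalling adaptor, at -0.18. The median of the list was -0.10, and -0.04 without the doubtful library.

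A20 is a classical NF-κB target, and one of its promoters is shown because the gene fell and the window holds a match. RefSeq gives 2 such windows for Tnfaip3. In one (GRCm38.p6, chr10:19015361-19015660, minus strand, 250 bases before to 50 after the start), an NF-κB motif, made of the half-sites GGGNN and TTTCC joined and searched on both strands, begins 12 bases before the start and stands in capitals, read on the strand opposite to the motif as spelled.
Tnfaip3 promoter: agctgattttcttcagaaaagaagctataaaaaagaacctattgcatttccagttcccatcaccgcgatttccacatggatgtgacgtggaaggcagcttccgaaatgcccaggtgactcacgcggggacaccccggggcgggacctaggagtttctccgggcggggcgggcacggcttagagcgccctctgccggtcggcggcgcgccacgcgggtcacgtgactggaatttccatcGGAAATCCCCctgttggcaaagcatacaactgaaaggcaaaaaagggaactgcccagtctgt
The motif was found in 2.99% of the 535 genes that fell both ways and have such a promoter, in 1.57% of the 383 that rose both ways, and in 2.18% of all 8999 tested genes that have one. The interferon response motif, TTTC repeated after a gap of NN, was in 6.54% of the genes that fell, 1.57% of those that rose and 4.02% of all. The AP-1 motif TGANTCA was in 7.1%, 7.31% and 6.23% in the same order. The other Tnfaip3 window and those of Nfkbie, Bcl3, Traf1 and Birc3, which fell both ways, held no match to this spelling of the motif. Other spellings of NF-κB sites were not searched, so these windows may still hold a site. The NF-κB shares above count this spelling only. These shares describe letters in a window and show no binding.

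Immediate early and ERK-dependent genes, which follow the Tpl2 branch, differed in both directions. Of 27 tested, 2 rose and 6 fell with all libraries, where 6.8% and 9.52% of all genes did, so the share that rose was near that of all genes. Without the doubtful library 4 rose and 8 fell, where 7.93% and 9.98% of all genes did. Both ways 2 rose and 4 fell, where 4.28% and 5.94% did. The number that fell was 3 without D310N replicate 1 and 3 without WT replicate 3. Spry2, a feedback inhibitor of ERK signalling, had 6.26, 5.97 and 6.34 in D310N cells, against 5.57, 5.75 and 5.57 in WT cells, a difference of 0.56 ± 0.09 (adjusted p = 0.000128). Dusp2, a nuclear phosphatase of ERK, had 11.15, 11.28 and 11.13 in D310N cells, against 11.53, 11.78 and 11.61 in WT cells, a difference of -0.45 ± 0.09 (adjusted p = 0.000669). The genotypes did not overlap for either gene, and the differences without the doubtful library were 0.53 and -0.51. Nr4a3, an orphan nuclear receptor, fell by 0.77 with all libraries and by 0.39 without the doubtful one, in which it stood at 9.37, against 8.10 and 8.35 in the other WT libraries. Spry2 was at 0.05 at 240 min, where it was not called.

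Cytokine genes that differed were mixed in direction. Of 23 tested, 2 rose and 5 fell with all libraries, where 6.8% and 9.52% of all genes did, and the same numbers were called both ways. Without the doubtful library 5 rose and 7 fell, where 7.93% and 9.98% of all genes did. The number that fell was 3 without D310N replicate 1, 8 without WT replicate 2 and 3 without WT replicate 3. Tnfsf9, the ligand of 4-1BB, had 10.03, 10.28 and 10.11 in D310N cells, against 10.44, 10.85 and 10.51 in WT cells, a difference of -0.46 ± 0.09 (adjusted p = 0.001). Il12a, the p35 chain of interleukin-12, rose by 0.65 ± 0.18 (adjusted p = 0.011), but was not called without WT replicate 2 (0.36, adjusted p = 0.111) or without D310N replicate 3 (0.60, adjusted p = 0.0542). Csf2, the growth factor GM-CSF, fell by 0.58 ± 0.15 (adjusted p = 0.00828), and was not called without WT replicate 3 (-0.32, adjusted p = 0.0906) or without D310N replicate 3 (-0.50, adjusted p = 0.0544). Other cytokines are named after their values were seen. Il1b, interleukin-1β, had 15.38, 15.31 and 15.33 in D310N cells, against 15.02, 14.79 and 15.24 in WT cells, a difference of 0.33 ± 0.07 (adjusted p = 0.00226). Ebi3, the chain shared by interleukin-27 and interleukin-35, had 11.78, 11.87 and 11.70 in D310N cells, against 12.12, 12.23 and 12.31 in WT cells, a difference of -0.43 ± 0.09 (adjusted p = 0.000922). Neither gene's libraries overlapped between genotypes. Tnf and Il6 were called neither way, at -0.04 and 0.03 with all libraries and 0.22 and 0.28 without the doubtful one.

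Of 20 chemokines tested, 2 rose and 4 fell with all libraries, where 6.8% and 9.52% of all genes did, and 1 rose and 3 fell both ways. Without the doubtful library 6 rose and 4 fell, where 7.93% and 9.98% of all genes did. Cxcl11, an interferon-induced ligand of CXCR3, had 10.01, 10.20 and 10.15 in D310N cells, against 10.80, 10.92 and 10.78 in WT cells, a difference of -0.71 ± 0.07 (adjusted p = 3.43e-08) that was also called by the 6 libraries alone. Ccl6, a CCR1 ligand made by macrophages, had 12.98, 12.75 and 12.93 in D310N cells, against 12.32, 12.42 and 12.29 in WT cells, a difference of 0.54 ± 0.11 (adjusted p = 0.000731). Both genes separated the genotypes in all 6 libraries.

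With all libraries, genes induced by interferons and MHC genes that differed were lower in D310N. Of 42 type I interferon-stimulated genes, 0 rose and 4 fell both ways and with all libraries, a share near the 9.52% of all genes. That number was 7 without the doubtful library, 2 without D310N replicate 1 or replicate 3, and 11 without WT replicate 3. At 0 min 34 of the 42 were lower in D310N and at 240 min 15 were, where 7.09% and 10% of all genes were. The list medians were -0.31 and -0.14, against -0.06 at 360 min. Isg20, an antiviral exonuclease, had 10.74, 10.96 and 10.79 in D310N cells, against 11.02, 11.32 and 11.43 in WT cells, a difference of -0.43 ± 0.09 (adjusted p = 0.00144). Ifit1bl1, of the IFIT family of antiviral RNA-binding proteins, fell by 0.46 ± 0.08 (adjusted p = 0.000261). Both were called both ways.

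Of 18 GTPases and regulators known from the interferon-γ response, 0 rose and 9 fell with all libraries, and 6 fell without the doubtful library and both ways. Tgtp1, an immunity-related GTPase, had 9.72, 10.04 and 9.87 in D310N cells, against 10.74, 10.83 and 10.59 in WT cells, a difference of -0.84 ± 0.12 (adjusted p = 2.36e-05); a near-identical copy of this gene makes its value uncertain. Ciita, the master activator of MHC class II genes, had 7.45, 7.73 and 7.54 in D310N cells, against 7.94, 8.30 and 8.28 in WT cells, a difference of -0.60 ± 0.09 (adjusted p = 4.91e-05), and -0.72 without the doubtful library. Gbp4, a guanylate-binding protein, fell by 0.43 ± 0.10 (adjusted p = 0.00226). No library of either genotype overlapped for Tgtp1, Ciita or Gbp4.

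Of 6 MHC class II genes tested, 5 fell both ways, with a list median of -0.24, and -0.33 without the doubtful library. Earlier, 2 of the 6 were lower in D310N at 0 min and 4 at 240 min, with list medians of -0.13 and -0.25. H2-Aa, the α chain of I-A, had 9.38, 9.29 and 9.33 in D310N cells, against 9.45, 9.64 and 9.62 in WT cells, a difference of -0.24 ± 0.06 (adjusted p = 0.00446). H2-DMb1, a chain of the peptide loader DM, fell by 0.25 ± 0.06 (adjusted p = 0.00407). The differences are small and lean on single libraries: 3 genes fell without D310N replicate 1, without D310N replicate 3 or without WT replicate 2, and 2 without WT replicate 3. H2-Ab1 fell by 0.26 (adjusted p = 0.00719) and by 0.40 without the doubtful library, but by 0.18 without WT replicate 3 (adjusted p = 0.0622). The MHC class I heavy chains H2-D1 and H2-K1 fell by 0.28 and 0.22 with all libraries and by 0.27 and 0.23 without the doubtful one; they belong to a family of near-identical genes, so reads may be split between them. Of 14 genes of MHC class I and the immunoproteasome, 0 rose and 3 fell, and 2 fell both ways; without the doubtful library 7 fell. Of 9 costimulators and checkpoint ligands 1 rose and 2 fell both ways, and 2 rose and 3 fell without the doubtful library; 0 rose without D310N replicate 1, D310N replicate 3 or WT replicate 3. The maturation marker Cd83 was among those that fell, with 13.91, 14.04 and 13.93 in D310N cells, against 14.32, 14.22 and 14.19 in WT cells, a difference of -0.28 ± 0.04 (adjusted p = 4.05e-05).

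With all libraries the list of G2/M genes had the most calls of the 28 lists, all lower in D310N; both ways it had 9 and the G1/S list 10. Of 28 G2/M and mitosis genes, 0 rose and 19 fell, with a list median of -0.48; without the doubtful library 1 rose and 9 fell, the same 9 that fell both ways, and the median was -0.23. Without D310N replicate 1 the number that fell was 11. Ube2c, a ubiquitin-conjugating enzyme of the anaphase-promoting complex, had 6.16, 6.17 and 6.28 in D310N cells, against 7.13, 6.86 and 6.77 in WT cells, a difference of -0.72 ± 0.13 (adjusted p = 0.000195). Cdk1, the mitotic kinase, had 6.58, 6.66 and 6.69 in D310N cells, against 7.82, 7.01 and 7.11 in WT cells, a difference of -0.67 with all libraries and -0.42 without the doubtful one. The doubtful WT library was the highest of the 6 for Ube2c, Cdk1, Nusap1 and Birc5, and the other WT libraries also lay above every D310N library. Nusap1, a spindle protein, fell by 0.83 with all libraries and 0.61 without that library, and Birc5 (survivin) by 0.81 and 0.58.

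Of 28 genes of G1/S and DNA replication, 0 rose and 12 fell with all libraries, and 10 fell both ways; the list median was -0.25, and -0.06 without the doubtful library. Mcm10, a replication initiation factor, had 7.87, 7.99 and 7.85 in D310N cells, against 9.05, 8.73 and 8.42 in WT cells, a difference of -0.83 ± 0.10 (adjusted p = 5.87e-07). Ccne2, cyclin E2, had 5.38, 5.68 and 5.25 in D310N cells, against 6.14, 5.97 and 6.31 in WT cells, a difference of -0.70 both ways. Rrm2, a subunit of ribonucleotide reductase, fell by 0.64 and by 0.41 without the doubtful library. At 0 min 27 of the 28 G2/M genes were lower in D310N, where 7.09% of all genes were, with a list median of -0.89.

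Glycolysis genes rose more often than they fell. Of 20 tested, 8 rose and 3 fell with all libraries, and 7 rose and 2 fell both ways, with a median of 0.15, and 0.17 without the doubtful library. Pdk1, which keeps pyruvate out of the mitochondria, had 10.18, 10.23 and 10.28 in D310N cells, against 9.88, 9.70 and 9.71 in WT cells, a difference of 0.47 ± 0.07 (adjusted p = 1.91e-05). Eno1, the enolase, had 13.11, 13.14 and 13.13 in D310N cells, against 12.85, 12.75 and 12.86 in WT cells, a difference of 0.31 ± 0.07 (adjusted p = 0.00308). Pfkl, the liver-type phosphofructokinase, rose by 0.36 ± 0.07 (adjusted p = 0.00118). The genotypes were separated in all 6 libraries for these 3 genes. The genes of the list that fell both ways, named after their values were seen, were Hk1 (a hexokinase) at -0.16 and Pfkfb3 (the enzyme that makes fructose-2,6-bisphosphate) at -0.25, or -0.42 without the doubtful library. Without D310N replicate 1, 1 gene fell. At 0 min 11 of the 20 rose and at 240 min 12 did, where 3.64% and 6.97% of all genes did.

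Sterol synthesis genes and targets of the oxysterol receptor LXR that differed were higher in D310N with all libraries. Of 22 tested, 10 rose and 0 fell with all libraries, and 5 rose and 0 fell both ways; without the doubtful library 8 rose and 1 fell, and without D310N replicate 2, 5 rose. The list median was 0.13, and 0.14 without the doubtful library. Fasn, fatty acid synthase, had 9.14, 9.32 and 9.16 in D310N cells, against 8.85, 8.60 and 8.94 in WT cells, a difference of 0.41 ± 0.08 (adjusted p = 0.000333). All D310N libraries lay above all WT libraries. Nr1h3, which encodes LXRα, rose by 0.47 with all libraries and 0.31 without the doubtful one, and Abca1, the cholesterol exporter, by 0.41 and 0.31. At 0 min 0 of the 22 were called, and at 240 min 3 rose and 1 fell, where 6.97% and 10% of all genes did.

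Genes of the ATF4 response and of serine and one-carbon metabolism fell more often than they rose. Of 17 tested, 1 rose and 6 fell with all libraries, and 1 rose and 3 fell both ways; without D310N replicate 1, 3 fell. Phgdh had 5.71, 6.13 and 5.98 in D310N cells, against 7.34, 7.08 and 6.76 in WT cells, a difference of -1.12 ± 0.11 (adjusted p = 3.43e-08). Asns, asparagine synthetase, had 7.98, 8.15 and 8.12 in D310N cells, against 9.04, 8.69 and 8.38 in WT cells, a difference of -0.62 ± 0.10 (adjusted p = 7.44e-05), and -0.45 without the doubtful library. Slc7a11, the cystine importer, rose, with 7.43, 7.18 and 7.44 in D310N cells, against 7.02, 6.29 and 6.76 in WT cells, a difference of 0.66 ± 0.16 (adjusted p = 0.0038). The pseudokinase Trib3 fell by 0.67 and, without the doubtful library, by 0.81.

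Few subunits of oxidative phosphorylation and few ribosomal proteins were called. Of 25 subunits of oxidative phosphorylation, the succinate dehydrogenase subunit Sdha alone was called, higher by 0.10. Of 28 cytosolic ribosomal proteins, 0 were called with all libraries and 2 rose without the doubtful one. Of 18 endoplasmic reticulum chaperones and unfolded protein response genes, 0 rose and 2 fell with all libraries, among them the disulfide isomerase Pdia6 at -0.18. Without the doubtful library 4 fell, where 9.98% of all genes did, and the list median was -0.13, against -0.09 with all libraries; without D310N replicate 1 or replicate 2, 1 fell. Lysosomal genes were split, with 5 of 26 higher and 4 lower with all libraries, where 6.8% and 9.52% of all genes were. Without the doubtful library 4 were higher and 6 lower, where 7.93% and 9.98% of all genes were. Both ways 3 were higher and 4 lower, and without D310N replicate 3, 3 were higher. Atp6v0d2, a macrophage and osteoclast subunit of the proton pump, had 11.21, 10.76 and 11.13 in D310N cells, against 10.45, 10.27 and 10.16 in WT cells, a difference of 0.74 ± 0.14 (adjusted p = 0.000558). The hydrolase genes Gaa and Hexa fell by 0.28 and 0.26. Beside the same shares of all genes, 2 of 15 Nrf2 and haem genes rose and 2 fell with all libraries. Without the doubtful library 1 rose and 2 fell. The number that rose was 0 without D310N replicate 1 or replicate 3, and 4 without D310N replicate 2. The iron exporter Slc40a1 fell by 0.36 and the haem-sensing repressor Bach1 by 0.28, both ways.

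Matrix genes, integrins and proteases rose more often than they fell. Of 22 tested, 10 rose and 1 fell with all libraries, 9 rose and 2 fell without the doubtful one, and 8 rose and 1 fell both ways; without WT replicate 3, 3 fell, and without WT replicate 2, 0 fell. The list median was 0.16, and 0.10 without the doubtful library. Besides Fn1 and Itgax, Timp1, an inhibitor of matrix metalloproteases, had 7.90, 7.66 and 7.96 in D310N cells, against 6.91, 7.49 and 6.99 in WT cells, a difference of 0.71 ± 0.13 (adjusted p = 0.000259). Mmp9, gelatinase B, rose by 0.87 ± 0.22 (adjusted p = 0.00759), but was not called without D310N replicate 1 (0.72, adjusted p = 0.0598) or replicate 3 (0.75, adjusted p = 0.0509). Of 20 genes of complement, coagulation and plasminogen, 5 rose and 5 fell with all libraries, 5 rose and 3 fell without the doubtful one, and 4 rose and 3 fell both ways. Without D310N replicate 1, 3 fell, and without D310N replicate 3, 2 fell. The list median was -0.09, and 0.05 without the doubtful library, so its sign turned. Plau, the urokinase protease, had 11.14, 10.93 and 11.28 in D310N cells, against 10.24, 10.58 and 10.64 in WT cells, a difference of 0.63 ± 0.16 (adjusted p = 0.00682). The genotypes did not overlap.

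C-type lectin receptors, which recognise microbial sugars, differed in both directions. Of 13 tested, 3 rose and 4 fell with all libraries, 4 rose and 3 fell without the doubtful one, and 3 rose and 3 fell both ways. Without D310N replicate 1 or replicate 3, 2 fell. Clec7a (dectin-1, a β-glucan receptor) had 12.43, 12.20 and 12.44 in D310N cells, against 11.51, 11.78 and 11.69 in WT cells, a difference of 0.69 ± 0.09 (adjusted p = 8.76e-06). Clec4n (dectin-2, a mannan receptor) had 6.81, 7.20 and 6.72 in D310N cells, against 8.13, 7.76 and 7.81 in WT cells, a difference of -0.99 ± 0.17 (adjusted p = 0.000132). These receptors of fungal cell walls thus stood on opposite sides of WT, each with no overlap of libraries. Clec10a, a receptor of galactose-type sugars, fell by 0.96 ± 0.13 (adjusted p = 5.76e-06). Among 22 macrophage identity and scavenger receptor genes, 4 rose and 1 fell with all libraries, 4 rose and 3 fell without the doubtful one, and 3 rose and 1 fell both ways; without D310N replicate 1, 2 rose. Cd36, a receptor of oxidised lipoprotein, had 15.23, 14.81 and 15.21 in D310N cells, against 14.27, 14.35 and 14.45 in WT cells, a difference of 0.72 ± 0.15 (adjusted p = 0.00133). Axl, a receptor kinase for apoptotic cells, fell by 0.36 ± 0.05 (adjusted p = 9.5e-06), with every D310N library below every WT library. Of 16 cytokine receptors and SOCS feedback genes 1 rose and 3 fell with all libraries, where 6.8% and 9.52% of all genes did. Without the doubtful library 0 rose and 6 fell, where 7.93% and 9.98% of all genes did, and 1 fell both ways. Without WT replicate 2, 4 rose, and without D310N replicate 3, 1 fell. Of 12 enzymes of nitric oxide, arginine and prostaglandin metabolism, 1 rose and 2 fell with all libraries, beside the same shares of all genes. The same numbers were called without the doubtful library, and 1 fell both ways. Leaving out each library of 360 min in turn, 0 to 2 rose and 1 or 2 fell. The itaconate enzyme Acod1, planned for this list, was not found under that name and is not among the 12. It stands in the data under its older symbol Irg1. Its difference was 0.01 with all libraries and 0.05 without the doubtful one. Of 25 survival and cell death genes, 2 rose and 2 fell with all libraries, and 0 rose and 7 fell without the doubtful library, where 9.98% of all genes fell. The pro-apoptotic gene Bcl2l11 (Bim) fell both ways, by 0.54 and 0.52.

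**Figure D4:**
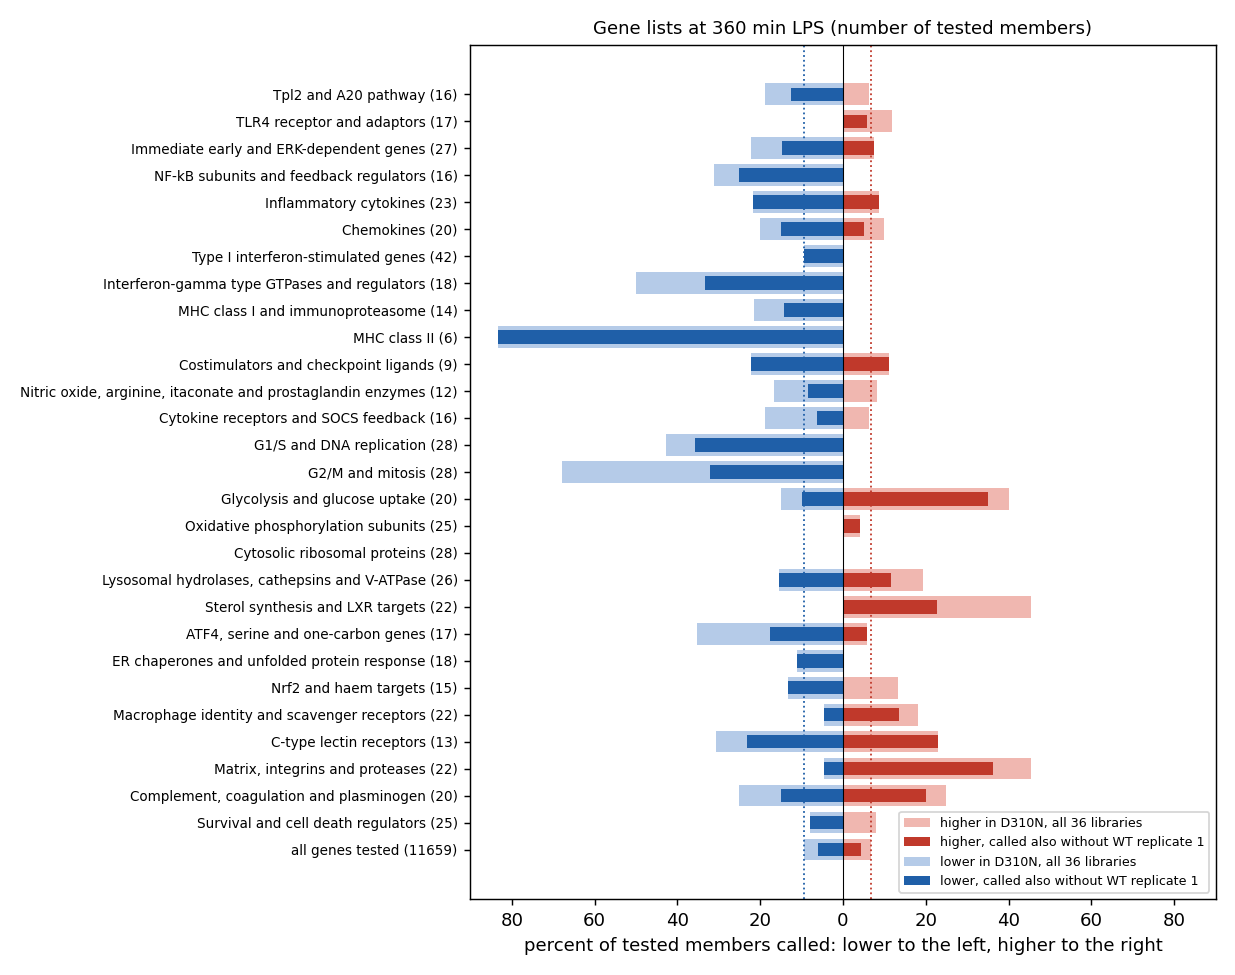
Percent of the tested members of each gene list (number in brackets) called lower (left, blue) or higher (right, red) in D310N at 360 min; pale bars use all 36 libraries, dark bars the calls made both ways. Dotted lines mark all genes, 9.52% lower and 6.8% higher. MHC class II (5 of 6 lower) and G2/M (19 of 28 lower with all libraries, 9 both ways) reach farthest to the left, and matrix genes and sterol genes (10 of 22 each with all libraries) farthest to the right.

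The macrophage label held, since all 8 macrophage markers were present in every library at 360 min. With all libraries 0 of them were called, and without the doubtful one Csf1r (0.16) and Fcgr1 (-0.18) were. Marker lists of other cells were mostly under the level that a gene needed for testing. Of 10 neutrophil markers 3 reached it in at least 1 of the 6 libraries, and their sum on the linear scale was 223 to 252 in D310N cells and 150 to 202 in WT cells, with Ly6g, Mpo and Elane under it. The 2 neutrophil markers called, both higher in D310N, were Mmp8 (a collagenase) at 0.43 and S100a8 (a calgranulin) at 0.58. Of 7 osteoclast markers 5 reached it, and their sum was 2683 to 3460 in D310N cells and 1968 to 2228 in WT cells, with Calcr and Oscar under it. The 2 osteoclast markers called, both higher in D310N, were Dcstamp (a cell fusion receptor) at 0.70 and Atp6v0d2. Of the markers of B, T, NK and dendritic cells, fibroblasts, and erythroid, megakaryocyte and mast cells, 0 were called with all libraries, and Ccr7 was without the doubtful one. Each of these sums followed mainly 1 gene and not its marker list as a whole. Across the 6 libraries Mmp8 lay at 7.02 to 7.83 log2, and S100a8 at 2.85 to 3.65, near the level needed for testing. Atp6v0d2 lay at 10.16 to 11.21, and Acp5, an osteoclast marker that was not called, at 8.89 to 9.15. Atp6v0d2 is also a member of the lysosomal list, so its rise is the same result and not a second one. The part of neutrophils or osteoclasts in the matrix and lysosome results above was not tested.

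Most of the differences at 360 min were already there earlier. Of the 499 genes that rose both ways, 263 (52.7%) were also called higher at 240 min, where 6.97% of all genes were, and 130 (26.1%) at 0 min, where 3.64% were. Of the 693 that fell both ways, 442 (63.8%) were called lower at 240 min, where 10% of all genes were, and 267 (38.5%) at 0 min, where 7.09% were. These comparisons use different libraries, and the fits share 1 estimate of the spread. At 30, 60 and 120 min, 4.42%, 4.89% and 7.93% of all genes were higher and 7.78%, 7.96% and 9.72% lower in D310N. At all 5 other times the same call was made for 83 genes that rose and 183 that fell, and at none of them for 150 and 171. In WT cells 80% of all genes differed between 240 and 0 min, 39.6% higher and 40.4% lower at 240 min. Of the genes that rose in D310N, 35.7% were higher and 46.5% lower at 240 min in WT cells. Of those that fell, 47.6% were higher and 36.4% lower. The genes called both ways made up 7.25% of the tested genes of chromosome 18 and 13.5% of those of chromosome 2, the lowest and highest of the autosomes, and 13.1% of those of the X chromosome.

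The genotype difference moved between 240 and 360 min for few genes. The change was called for 15 of 11659 genes (0.129%) with all libraries, 8 upward (0.0686%) and 7 downward (0.06%). It was called for 61 (0.523%) without the doubtful WT library, 23 upward (0.197%) and 38 downward (0.326%), and for 14 both ways. The count was 8 without D310N replicate 3 of 360 min, 7 without WT replicate 3 of 240 min, 212 without WT replicate 2 of 360 min and 116 without WT replicate 3 of 360 min. Ch25h, which makes the antiviral oxysterol 25-hydroxycholesterol, differed by 0.12 at 360 min, against -0.59 at 240 min. At 360 min it had 10.88, 10.56 and 10.76 in D310N cells, against 10.45, 10.73 and 10.68 in WT cells. The change was 0.70 ± 0.10 (adjusted p = 0.00157), and the genotypes overlapped at 360 min. Nfe2l2, the antioxidant factor Nrf2, differed by 0.08 at 360 min, against -0.37 at 240 min, a change of 0.45 ± 0.08 (adjusted p = 0.00473). Tlr13, the endosomal receptor of bacterial ribosomal RNA, differed by 0.49 at 360 min, against 0.13 at 240 min, a change of 0.36 ± 0.06 (adjusted p = 0.00473). It had 11.03, 10.97 and 11.06 in D310N cells, against 10.40, 10.63 and 10.56 in WT cells.

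In the other direction, Bcl3 differed by -0.51 at 360 min, against 0.12 at 240 min, a change of -0.64 ± 0.11 (adjusted p = 0.00696). Gramd4, a regulator of endosomal Toll-like receptors in mice, differed by -0.61 at 360 min, against 0.28 at 240 min, a change of -0.89 ± 0.15 (adjusted p = 0.00473), at low levels of 3.72, 3.97 and 3.80 in D310N cells, against 4.51, 4.35 and 4.47 in WT cells. Ch25h, Nfe2l2, Tlr13, Bcl3, Gramd4 and Mib2 (a ubiquitin ligase of the Notch pathway) were called with any 1 of the 12 libraries of 240 and 360 min left out. Tnip2 itself moved by -0.36 ± 0.09, which was called only without the doubtful library (adjusted p = 0.0918 with all and 0.0373 without it).

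**Figure D5:**
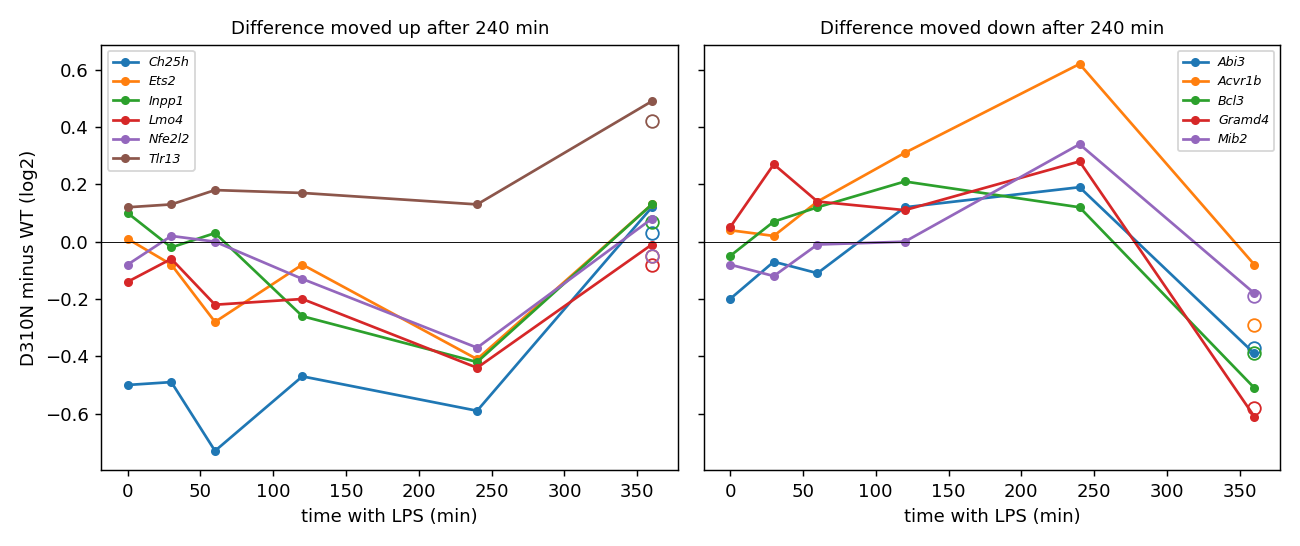
Difference between D310N and WT (log2) over the 6 times for the named genes whose difference moved between 240 and 360 min, upward (left) or downward (right). Filled points use all libraries; open circles show 360 min without the library labelled WT replicate 1. Ch25h moved to 0.12 at 360 min, against -0.59 at 240 min, and Gramd4 to -0.61, against 0.28.

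Against the unstimulated state the difference moved for more genes. The change from 0 to 360 min was called for 234 genes (2.01%) with all libraries, 118 upward (1.01%) and 116 downward (0.995%). Without the doubtful one it was called for 581 (4.98%), 341 upward (2.92%) and 240 downward (2.06%), and for 199 both ways, 100 upward and 99 downward. Leaving out 1 library gave as few as 107 calls (without D310N replicate 3 of 0 min) and, besides the doubtful library, as many as 509 (without WT replicate 2 of 360 min). Cxcl11 differed by -0.71 at 360 min, against -0.07 at 0 min, and Cytip by -1.09, against -0.01. Dtd1 differed by 1.43 at 360 min, against 0.33 at 0 min. These 3 genes were called for the change both ways, and each was among the named genes of 360 min.

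Some differences depended on the doubtful WT library. The genes that moved most when it was left out were chosen for that and are described without a test of the move. Ccr7, the homing receptor of mature dendritic cells, had 6.02, 6.26 and 5.86 in D310N cells, against 4.96, 6.69 and 7.10 in WT cells, and its difference was -0.20 with all libraries and -0.85 without the first WT library. Saa3, an acute-phase protein, had 11.31, 11.27 and 11.22 in D310N cells, against 9.86, 12.69 and 11.51 in WT cells, with differences of -0.09 and -0.83. Irf2bpl had 9.17, 9.27 and 9.19 in D310N cells, against 7.89, 9.98 and 9.59 in WT cells, with differences of 0.06 and -0.57. In these 3 genes the first WT library was the lowest of the 6 and the other WT libraries lay above every D310N library. Hhex, a homeobox factor, had 8.49, 8.49 and 8.50 in D310N cells, against 9.81, 8.13 and 8.11 in WT cells, with differences of -0.19 and 0.37. Rhob, a small GTPase, was called lower by 0.60 with all libraries and stood at -0.09 without the doubtful one, and Mycl, a Myc family factor, fell by 0.96 and by 0.42.

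Among named members of the lists, calls made with all libraries were lost without the doubtful library for the STAT inhibitors Cish (-0.51 and -0.10) and Socs1 (-0.49 and -0.19), for Irak3 (an inhibitor of TLR signalling, 0.36 and 0.17) and for Hmox1 (haem oxygenase, 0.58 and 0.15). Other members were called only without it. Tnip3 (ABIN-3) had 13.92, 14.02 and 13.99 in D310N cells, against 13.72, 14.46 and 14.14 in WT cells, with differences of -0.13 (adjusted p = 0.353) and -0.32 (adjusted p = 0.000761). Il10, the anti-inflammatory cytokine, named after its values were seen, had 9.12, 9.14 and 9.42 in D310N cells, against 8.75, 9.94 and 9.79 in WT cells, with differences of -0.27 (adjusted p = 0.299) and -0.64 (adjusted p = 0.000252). Il1rn, the interleukin-1 receptor antagonist, also named after its values were seen, differed by -0.20 (adjusted p = 0.417) and -0.55 (adjusted p = 0.000464). Sbno2, a transcriptional co-regulator induced by interleukin-10, fell both ways, with 11.41, 11.46 and 11.48 in D310N cells, against 11.59, 12.27 and 11.92 in WT cells, and differences of -0.48 and -0.65.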

How the data were processed

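RNA was sequenced as single-end 75 bp reads. Per the submitters' processing notes, STAR 2.5.2a, RSEM 1.2.31 and DESeq2 1.10.1 were used with mm10. The authors deposited normalised log2 values for 16439 rows; the transformation is not given in the sources used here, and one that shrinks low values would make differences of weak genes too small. The table holds no raw counts, so read depth is unknown and no counting intervals are given. Library medians ranged from 6.83 to 7.2. Here 23 rows with calendar dates as names were dropped, and 11659 genes with at least 3.32 in at least 3 of 36 libraries were tested with limma 3.58.1 (R 4.3.3): 12 group means, an intensity trend, 24 residual degrees of freedom (23 when WT replicate 1 of 360 min was left out), two-sided p-values with Benjamini-Hochberg adjustment over all tested genes, called under 0.05. Differences are D310N minus WT. The change of the difference between times is an interaction contrast. The model was also run on simulated data in which all libraries of a gene had the same spread. That run held no outlying library and says nothing about the doubtful one. Positions are GENCODE M21 (GRCm38), by symbol; overlapping genes and near-identical copies are uncertain. The plan foresaw pseudocounts on linear values; since the values were already logs, they were added to back-transformed values as alternatives. Replicate numbers recur in both genotypes, no label says that they pair the libraries, and the main fit used no pairing. Alternatives were other filters, pseudocounts, scalings, no trend, library weights, a replicate block, a fit to the times compared only, and leaving out each library in turn. The members, gene lists and tests were chosen with earlier results of these data known. Named genes are Tnip2 and 5 pathway genes, the 12 largest rises and 12 largest falls called both ways with a mean of at least 5.64 in the higher genotype, up to 4 members of each list, the 6 strongest changes from 240 to 360 min in each direction, and the 5 genes in each direction that moved most without the doubtful library; clone names and pseudogenes may be left out. A few of these genes are left out of the text.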

Additional observations from a re-analysis of the deposited data

Results flagged for a closer look

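The genotype difference itself differed between 240 and 360 min, by the interaction contrast of limma, for 12 named genes, with all libraries and also when the doubtful WT library (replicate 1 of 360 min) was left out. The change in log2 units, 360 minus 240 min, was 0.70 for Ch25h, 0.55 for Ets2 (an ETS family factor activated by ERK), 0.54 for Inpp1 (an inositol phosphatase), 0.45 for Nfe2l2, 0.43 for Lmo4 (a LIM domain protein) and 0.36 for Tlr13. It was -1.02 for the unnamed gene 9130008F23Rik, -0.89 for Gramd4, -0.70 for Acvr1b (an activin receptor), -0.64 for Bcl3, -0.58 for Abi3 (an actin regulator) and -0.51 for Mib2.

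Of these, Ch25h, Nfe2l2, Tlr13, Bcl3, Gramd4 and Mib2 were called with any 1 of the 12 libraries of 240 and 360 min left out, with adjusted p of at most 0.0445. Abi3 lost its call without 1 library (WT at 240 min, replicate 1, adjusted p = 0.06), and Ets2 kept it in 4 of the 12 fits. Acvr1b was called in 7 of the 12, Lmo4 in 8, and Inpp1 and 9130008F23Rik in 9 each. At 360 min itself Mib2 differed by -0.18 (adjusted p = 0.0376), a call lost without D310N replicate 1 (adjusted p = 0.0747), D310N replicate 2 (adjusted p = 0.169) or WT replicate 3 (adjusted p = 0.103). Ch25h, Nfe2l2, Ets2, Inpp1 and Lmo4 were called neither way at 360 min and were lower in D310N at 240 min. No label marks a batch, so depth, RNA quality or handling by time was not tested.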

How the results depend on the processing

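Leaving out 1 library in turn gave 1115 to 2346 called genes for D310N against WT at 360 min (1903 with all), 7 to 212 for the change from 240 to 360 min (15) and 107 to 581 for the change from 0 to 360 min (234). The libraries of the compared times alone called 12 genes at 360 min (1590 at an unadjusted p under 0.05), 0 for the change from 240 min (560 at an unadjusted p under 0.05) and 15 for the change from 0 min. Without the doubtful WT library they called 1017, 7 and 332. This fit has 4 residual degrees of freedom for 360 min, against 24. Library weights gave 2455, 88 and 1005. Quantile normalization called 1564 genes at 360 min, 48.5% of them higher in D310N, against 41.7% in the analysis reported, and the other filters, pseudocounts, trimmed mean scaling and the fit with no trend stayed between 1784 and 1908. For Irf2bpl (0.06 with all libraries) the difference was -0.40 with library weights and -0.57 without the doubtful library, also with the compared time alone; leaving out 1 library in turn gave -0.57 to 0.47. For Hhex (-0.19) it was 0.32 with weights and 0.37 without the doubtful library, also with the compared time alone, and -0.48 to 0.37 over single libraries. The cause was not tested. Deviations of same-numbered D310N and WT libraries at 360 min correlated by 0.033, 0.009 and -0.018, against -0.041 to 0.054 for differing numbers. These values cover 360 min alone and include the doubtful library, so they cannot decide whether the numbers pair the libraries. With the numbers as a replicate block 2048, 25 and 268 genes were called, against 1903, 15 and 234. Read depth is unknown, so it sets no limit that can be given here.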
